A study of Macaca mulatta with 30 samples.

Results

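The collagen genes encode the alpha chains of the collagens, the most abundant proteins of the extracellular matrix, and were taken here as every gene whose Ensembl rhesus macaque symbol reads COL, a number, A and a number. The lung count table held 35 of them among 30246 gene identifiers, and all 35 were counted with at least 7 reads in 3 or more libraries and were tested among 17644 genes. The hippocampus table held 41 among 32386 identifiers, of which 40 reached 7 reads in at least 5 libraries and were tested among 17390 genes. The remaining gene, COL23A1, had between 1 and 23 reads per hippocampus library and was not tested there. COL1A2, COL5A3, COL6A6, COL22A1, COL26A1 and COL28A1 were matched by symbol in the hippocampus table alone, 34 collagens were tested in both tissues, and the known chains COL7A1, COL10A1 and COL24A1 were matched in neither. A symbol was available for 52.1% of the identifiers in the lung table and 54.4% in the hippocampus table.

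Each collagen molecule is a helical trimer of alpha chains that is hydroxylated and assembled inside the cell, secreted, trimmed by proteases and cross-linked in the matrix. The fibrillar collagens give tissues tensile strength, the collagen IV chains form the network of basement membranes, collagen VI forms beaded filaments around cells, and the fibril-associated and transmembrane members connect fibrils and cell surfaces to their surroundings. In brain tissue the chains of collagens I and III are largely products of the meninges and of fibroblasts along vessels. In the lung, fibroblasts, smooth muscle and airway cartilage produce fibrillar chains.

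The study compared 2 antenatal corticosteroid regimens in wild-type rhesus macaque fetuses. Pregnant animals received 1 intramuscular injection of saline (control), of the clinical drug (Celestone, an equal mixture of betamethasone phosphate and betamethasone acetate, 0.25 mg/kg), or of betamethasone acetate alone (Beta-Ac, 0.125 mg/kg). Fetal lung was collected in 5 groups of 3 fetuses, namely control, clinical drug after 4 h or 5 days and Beta-Ac after 6 h or 5 days. The lung labels gave 124 to 130 days of gestation. Lung library names began with 15 for the clinical drug at 4 h, with 16 or 17 for Beta-Ac at 6 h, and with 16 in both 5-day groups. The lung controls were named 15-92, 15-101 and 16-113. Hippocampus was collected after 5 days, at 130 to 136 days of gestation by its labels, in 3 groups of 5 fetuses whose libraries were named CTL, BAC and CEL. In the hippocampus labels the treatment and dose fields crossed the names, since BAC libraries carried the 2-component drug at 0.25 mg/kg and CEL libraries carried Betamethasone-acetate at 0.125 mg/kg, while the lung labels of the same animals followed the names. Hippocampus groups are therefore called here CEL and BAC by library name. Of the fetuses, 9 gave both tissues. Their lung and hippocampus labels gave different ages, so the 2 age ranges do not show that lungs came from younger fetuses.

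Lung libraries held 14073002 to 45033799 counted reads and hippocampus libraries 18280762 to 29301058. Levels are given as counts-per-million (CPM) after TMM scaling, so they compare libraries of 1 tissue for 1 gene and not different genes, whose lengths were not available here. Neuron markers summed to between 1847 and 2918 CPM in the hippocampus libraries, and lung epithelium markers to between 6167 and 16260 CPM in lung. The control hippocampus library CTL212, from the youngest control fetus at 130 days, stood apart, with 1174 CPM summed over 5 matched choroid plexus markers of 8 listed (FOLR1, CLIC6, OTX2, SLC4A5 and F5) against 4.65 to 21.5 CPM in the other 14. The library BAC130 held 719 CPM summed over 8 matched meningeal markers of 10 listed, against 13.2 to 159 CPM in the others. Of this sum, 511 CPM came from OGN, which is also among the collagen-binding genes examined below. Results that rest on these libraries are given with and without them.

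Many collagen transcripts were less abundant in CEL than in control hippocampus. Of the 40 collagens tested, 15 fell and 0 rose, a fall or rise being a fold change of at least 1.5 with p under 0.05 and an adjusted p under 0.1 in edgeR's quasi-likelihood test (Benjamini-Hochberg). Of all 17390 genes, 7.86% were called and 5.35% were called lower in this comparison. Fibrillar chains made up the largest group, with 6 of 10 lower, followed by 3 of 10 fibril-associated collagens, 2 of 6 collagen IV chains, 1 of 5 collagen VI chains, 1 of the 2 multiplexins (basement membrane collagens with interrupted helices) and both remaining members, COL26A1 and COL28A1. None of the 3 transmembrane or 2 short-chain network collagens was called. Fitted values of 34 of 40 collagens were lower, with a median log2 fold change of -0.83, where 51.9% of all genes were lower and their median was -0.02. Because whole tissue was sequenced, fewer cells of a type and less RNA per cell cannot be told apart.

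**Figure D1:**
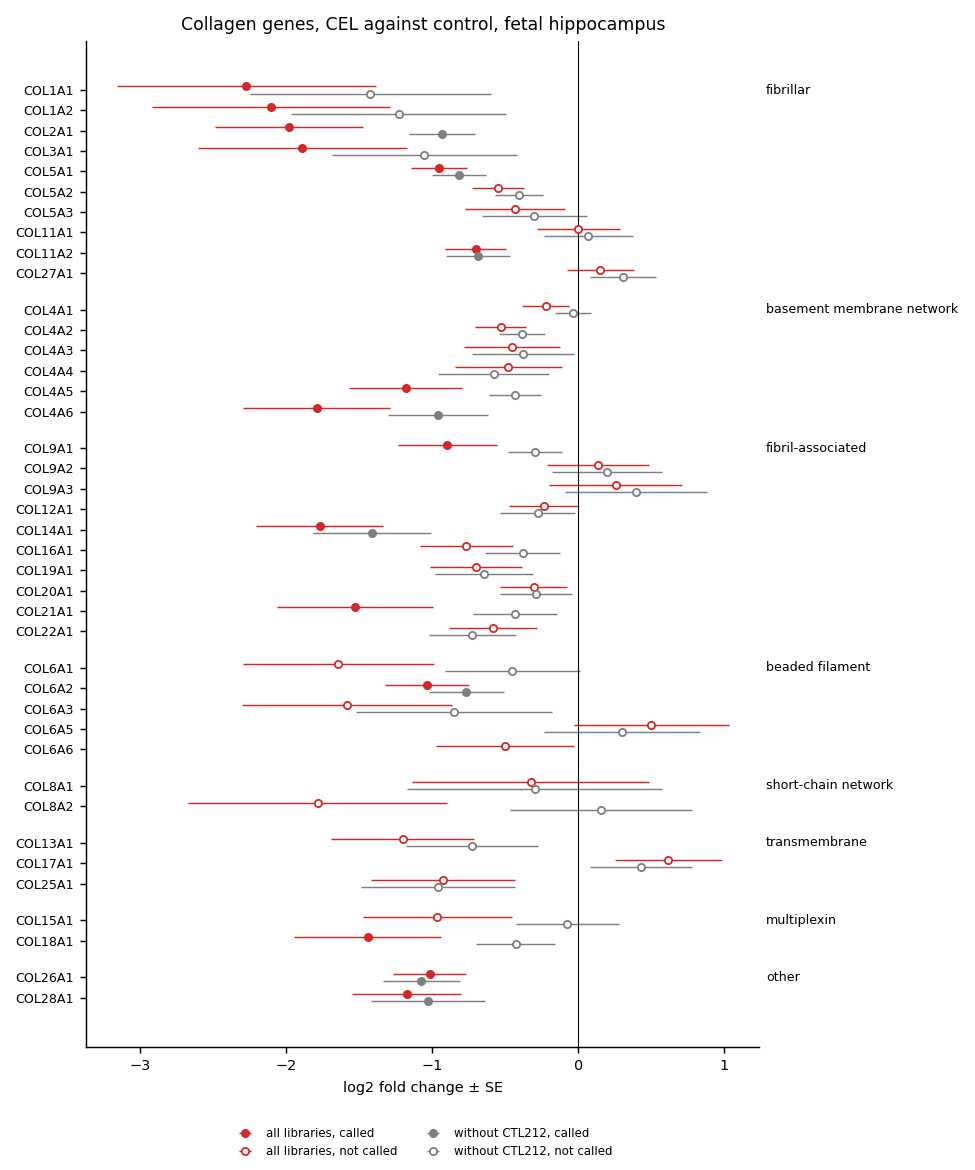
Log2 fold change (CEL over control, points, with the standard error as bars) of the hippocampal collagens, with all libraries in red and without CTL212 in grey. Filled points passed the test, 15 with all libraries and 8 without CTL212, and most points lie left of 0 in both fits.

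Among the fibrillar chains, COL5A1 (ENSMMUG00000012147), the chain of collagen V that nucleates and limits the width of collagen I fibrils, showed the smallest adjusted p. Its level was 49.2, 45.8, 48.2, 49.1 and 71.8 CPM in CTL092, CTL101, CTL113, CTL209 and CTL212, and 23.4, 24.4, 30.6, 27.4 and 30.4 CPM in CEL115, CEL120, CEL126, CEL238 and CEL245. All CEL libraries lay below all controls, with means of 27.3 ± 3.29 against 52.8 ± 10.7 CPM (SD, n = 5 each) and a log2 fold change of -0.95 ± 0.19 (SE, adjusted p = 0.0139). COL2A1 (ENSMMUG00000011444), the collagen of cartilage and vitreous, stood in the same order of libraries at 3.10, 3.42, 2.53, 4.05 and 20.8 CPM in controls and at 1.57, 1.60, 2.31, 1.62 and 1.45 CPM in CEL. The groups did not overlap, but CTL212 was far above the other controls, and the log2 fold change of -1.98 ± 0.51 (adjusted p = 0.0241) became -0.93 without it (adjusted p = 0.0211).

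COL11A2 (ENSMMUG00000003850), a chain of the collagen XI that lies within thin fibrils, was counted at 11.2, 14.1, 13.4, 10.1 and 12.9 CPM in controls and at 5.65, 7.51, 8.34, 7.35 and 9.03 CPM in CEL. Here CTL212 lay among the other controls, and the groups were separate, with a log2 fold change of -0.70 ± 0.21 (adjusted p = 0.0383). Its partner chain COL11A1 had a log2 fold change of 0.00 ± 0.29, with 85.8 ± 17.7 CPM in controls and 85.8 ± 27.7 CPM in CEL (SD, n = 5 each). COL5A2, which joins COL5A1 in collagen V, had a log2 fold change of -0.55 ± 0.18 (adjusted p = 0.0540), just under the fold limit of 1.5.

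The chains of collagens I and III, the main fibrils of connective tissue, had the largest fitted changes and the widest spread. COL1A1 was counted at 51.3, 97.8, 46.2, 6.78 and 253 CPM in controls (CTL092 to CTL212 as above) and at 46.9, 18.6, 5.59, 11.2 and 12.0 CPM in CEL. The groups overlapped, since CTL209 lay below 4 of the 5 CEL libraries and CTL212 lay far above every other library. COL1A1 fell by 2.27 ± 0.89 on the log2 scale (adjusted p = 0.0973), COL1A2 fell by 2.11 ± 0.81 (adjusted p = 0.0945) and COL3A1 fell by 1.89 ± 0.72 (adjusted p = 0.0892). These 3 calls were lost without CTL212, where the log2 fold changes were -1.42, -1.23 and -1.05.

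**Figure D2:**
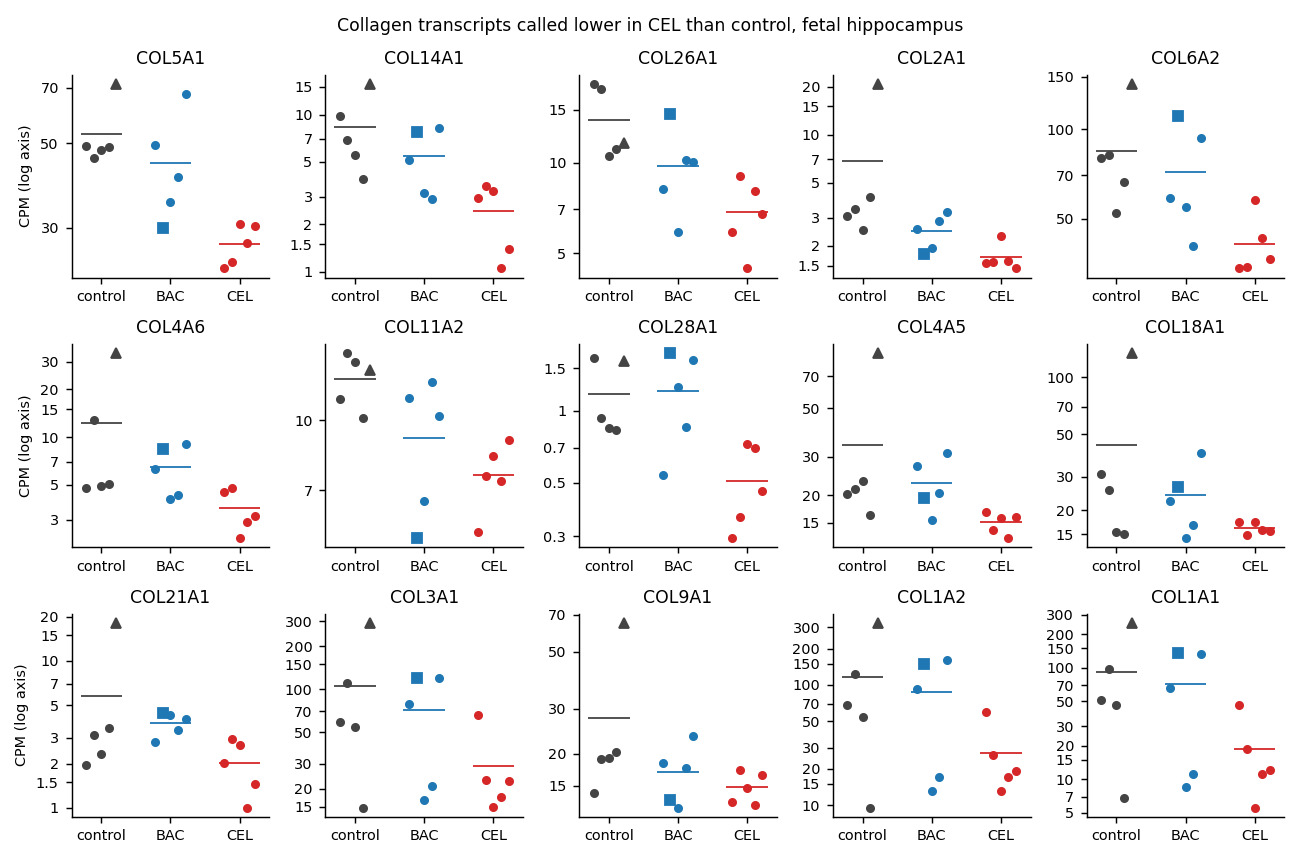
CPM of hippocampal collagens in each library of the control, BAC and CEL groups (points; the line is the group mean, the triangle is CTL212 and the square is BAC130). For COL5A1 the CEL libraries sit between 23.4 and 30.6 CPM, below every control, whereas for COL1A1 the groups overlap and CTL212 is at 253 CPM.

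Of the collagen IV network, COL4A6 (ENSMMUG00000007205), a chain of basement membranes around smooth muscle and epithelia, was counted at 4.76, 12.8, 4.93, 5.04 and 33.9 CPM in controls and at 4.52, 4.79, 2.31, 2.93 and 3.20 CPM in CEL. The 2 groups touched at CTL092 and CEL120, and the log2 fold change was -1.79 ± 0.50 (adjusted p = 0.0332), or -0.96 without CTL212 (adjusted p = 0.0771). COL4A5, which assembles with COL4A6, was at 89.2 CPM in CTL212 against 16.3 to 23.2 CPM in the other controls and 12.8 to 16.9 CPM in CEL. Its log2 fold change of -1.18 ± 0.39 (adjusted p = 0.0568) became -0.43 without CTL212 and was then not called. The ubiquitous basement membrane chains COL4A1 and COL4A2 had log2 fold changes of -0.22 ± 0.16 (adjusted p = 0.367) and -0.53 ± 0.17 (adjusted p = 0.0567), and neither reached the fold limit.

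COL6A2 (ENSMMUG00000022317), 1 of the 3 chains of the common collagen VI filament, was counted at 79.8, 82.3, 52.5, 66.6 and 142 CPM in controls and at 34.1, 34.4, 58.0, 43.1 and 36.7 CPM in CEL. Only CEL126 reached into the control range, and the log2 fold change was -1.04 ± 0.29 (adjusted p = 0.0311). The other two common chains were not called, COL6A1 with a log2 fold change of -1.64 ± 0.65 (adjusted p = 0.104) and COL6A3 with -1.58 ± 0.72 (adjusted p = 0.150). COL6A1 stood at 106 CPM in CTL212 against 5.20 to 23.0 CPM in the other controls.

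COL14A1 (ENSMMUG00000002595), a collagen that sits on the surface of collagen I fibrils, was counted at 9.76, 6.84, 5.49, 3.89 and 15.7 CPM in controls and at 2.95, 3.50, 3.28, 1.05 and 1.39 CPM in CEL. No CEL library reached a control, and the log2 fold change was -1.77 ± 0.43 (adjusted p = 0.0208). The other called fibril-associated members were COL21A1 (log2 fold change -1.53 ± 0.54, adjusted p = 0.0704) and COL9A1, a chain of the cartilage collagen IX (-0.90 ± 0.34, adjusted p = 0.0900). Both calls rested on CTL212, where COL21A1 was 18.2 CPM against 1.95 to 3.49 CPM in the other controls and COL9A1 was 65.0 against 14.1 to 20.4 CPM.

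COL26A1 (ENSMMUG00000048852) was counted at 18.3, 17.7, 10.5, 11.1 and 11.6 CPM in controls and at 5.90, 9.06, 4.45, 8.05 and 6.76 CPM in CEL. The groups did not overlap, CTL212 was not extreme, and the log2 fold change was -1.02 ± 0.25 (adjusted p = 0.0216). COL28A1 (ENSMMUG00000040123), a small collagen best known from peripheral nerve, also had separate groups, at 0.833 to 1.65 CPM in controls and 0.295 to 0.729 CPM in CEL (log2 fold change -1.18 ± 0.37, adjusted p = 0.0506). Its level rests on 6 to 48 reads per library, the fewest among the called collagens. COL18A1, the multiplexin whose end fragment is endostatin, was at 133 CPM in CTL212 against 15.1 to 31.1 CPM in the other controls and 14.9 to 17.4 CPM in CEL (-1.44 ± 0.50, adjusted p = 0.0696).

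Groups of CEL and control libraries did not overlap for 6 collagens, all lower in CEL (COL5A1, COL14A1, COL26A1, COL2A1, COL11A2 and COL28A1), where 10% of all genes were separated in that direction. The multiplexin COL15A1 had a log2 fold change of -0.97 ± 0.51 (adjusted p = 0.212), with 72.5 CPM in CTL212. The highest fitted values, none of them called, were 0.62 ± 0.37 for COL17A1 (adjusted p = 0.268), a transmembrane collagen of epithelial attachment, 0.50 ± 0.53 for COL6A5 (adjusted p = 0.550) and 0.26 ± 0.45 for COL9A3 (adjusted p = 0.735).

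The count of lower collagens depended on CTL212. This library was the highest of all 15 for 21 of the 40 tested collagens and for 12 of the 15 called ones. Without it, 8 of 39 collagens were called lower, against 5.01% of 17300 genes, and all 8 were among the 15. They were COL5A1 (log2 fold change -0.82, adjusted p = 0.0170), COL2A1, COL26A1 (-1.07, adjusted p = 0.0214), COL14A1 (-1.41, adjusted p = 0.0361), COL11A2 (-0.69, adjusted p = 0.0548), COL6A2 (-0.77, adjusted p = 0.0630), COL4A6 and COL28A1 (-1.03, adjusted p = 0.0922). Fitted values were lower for 32 of 39, with a median of -0.43 where the median of all genes was 0.02. Groups were separate for 7 of 39, against 13.2% of all genes.

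Leaving out any of the other libraries gave 8 to 19 called collagens, 8 each without CEL120, CEL126 or CEL238, 9 without CEL245, 12 each without CEL115 or CTL101, 14 without CTL092, 16 without CTL113 and 19 without CTL209. The share of all genes called in these fits is not given here, so the counts are not read as particular to collagens. COL2A1, COL4A6, COL5A1, COL6A2, COL11A2, COL14A1 and COL26A1 were called in all 10 fits that left out 1 control or CEL library, and COL28A1 in 7. COL1A1, COL1A2 and COL3A1 were called in 3.

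Summed CPM of all collagens was 843, 1143, 1200, 1445 and 2821 in controls, the last in CTL212, and 796 to 972 in CEL. CTL212 was also the highest library for summed mural markers, at 277 CPM against 90.8 to 146 CPM elsewhere (5 of 6 listed markers matched), and for endothelial markers, at 293 against 95.0 to 175 CPM (4 of 5 matched). Summed meningeal markers ran from 13.2 CPM in CTL209, the control with the least COL1A1, to 159 CPM in CTL212, and in CEL from 43.3 to 120 CPM, the highest in CEL115, which also held the most COL1A1 in that group. Yet BAC130 and BAC237 had similar COL1A1 levels, with marker sums of 719 and 102 CPM. COL5A1 was at 49.1 CPM in CTL209 and at 45.8 CPM in CTL101, where these markers summed to 82.4 CPM. Summed astrocyte markers (GFAP, AQP4 and SLC1A3) were higher in CEL, at 2887 to 4077 CPM, than in controls, at 2058 to 3166 CPM, where only CTL113 reached into the CEL range. No matched marker of these lists was at 0 throughout any group, and their part in the collagen result was not tested.

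**Figure D3:**
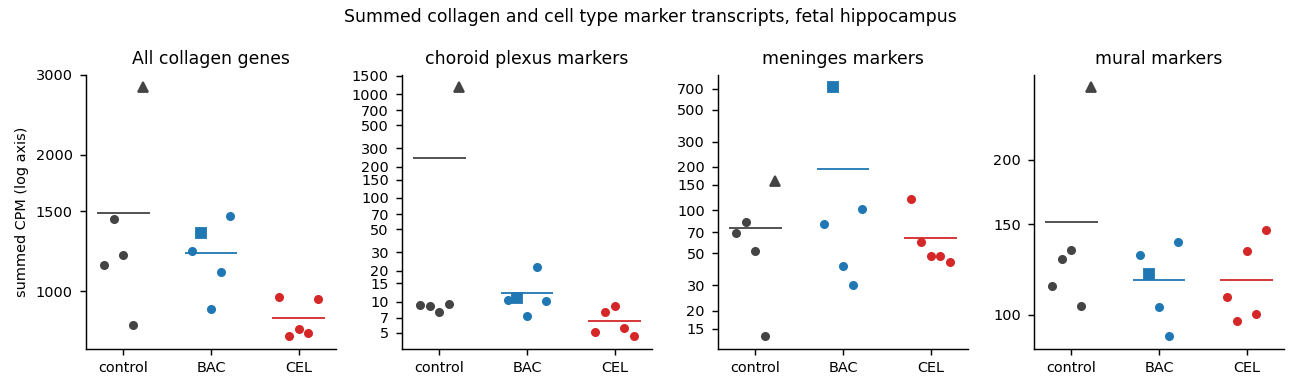
Summed CPM of all collagen genes and of choroid plexus, meningeal and mural markers in each hippocampus library by group (log axis; triangle CTL212, square BAC130). CTL212 is highest for collagens, choroid plexus and mural markers, and BAC130 is highest for meningeal markers.

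Sequencing runs named in the labels did not hold all groups evenly, since CTL092 and CTL101 shared a run with no CEL library and CTL209 was alone in a run. Within the run of CTL113, each of CEL115, CEL120 and CEL126 was below CTL113 for 24 of the 40 tested collagens, against 31% of all genes, and the median log2 difference of the CEL mean was -0.53. Within the run of CTL212, both CEL238 and CEL245 were below CTL212 for 33 of 40, against 43.7% of all genes, with a median of -1.28. Of the 15 called collagens, which these same libraries helped to select, 9 and 15 were in those counts. With the run as a term in the model, 17 collagens were called lower, against 4.72% of all genes, and 1, COL17A1, higher (log2 fold change 1.6, adjusted p = 0.0618), against 0.788%. COL1A1, COL1A2, COL26A1 and COL28A1 were no longer called, and 11 of the 15 were. The runs of CTL092, CTL101 and CTL209 held no CEL library, so the difference in this fit rested on CTL113 and CTL212. A fit with the run and without CTL212 was not made.

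The BAC hippocampus did not yield any called collagen against the same controls, 0 of 40, and 0% of all genes were called. By edgeR, 2 of the 40 had an unadjusted p under 0.05, and DESeq2 called 0. The median log2 fold change was -0.31 with 31 of 40 lower, and without CTL212 it was 0.03 with 18 of 39 lower. The largest values were -2.60 ± 0.92 for COL8A2 (adjusted p = 0.286), a short-chain collagen of endothelial membranes, -1.45 ± 0.49 for COL2A1 (adjusted p = 0.276) and -1.08 ± 0.51 for COL15A1 (adjusted p = 0.408). On the other side stood COL17A1 at 0.54, COL27A1 at 0.35 and COL9A3 at 0.27. CTL212 held 48.2 CPM of COL8A2, 20.8 of COL2A1 and 72.5 of COL15A1, where the control medians were 2.92, 3.42 and 12.8 CPM. Without CTL212 the collagen values in BAC against control ran only from -0.66 to 0.73.

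The BAC libraries were spread out for several fibrillar chains. COL5A1 was at 49.4, 29.9, 35.1, 40.8 and 67.4 CPM in BAC128, BAC130, BAC136, BAC235 and BAC237, values that span both the control and the CEL ranges. COL1A1 was at 66.1, 135, 8.52, 11.1 and 134 CPM in the same libraries, with BAC130 and BAC237 high and BAC136 and BAC235 near the level of most CEL libraries.

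Set against BAC directly, CEL showed 0 called collagens of 40, and 0% of all genes were called. By edgeR 7 had an unadjusted p under 0.05, and DESeq2 called 1, COL5A1, at a log2 fold change of -0.70 (DESeq2 adjusted p = 0.0348). The edgeR values were -0.71 ± 0.19 for COL5A1 (adjusted p = 0.219), -1.21 ± 0.37 for COL28A1 (adjusted p = 0.228), -1.16 for COL14A1 (adjusted p = 0.272) and -0.80 for COL6A2 (adjusted p = 0.263). The largest were -1.92 ± 0.88 for COL1A1 (adjusted p = 0.356), -1.68 for COL1A2 and -1.58 for COL6A3, and the highest were 0.82 for COL8A2, 0.76 for COL6A5 and 0.52 for COL9A2. In all, 33 of 40 were lower in CEL, with a median of -0.51. Without CTL212 alone 0 were called and 17 of 39 had an unadjusted p under 0.05. Without CTL212 and BAC130, COL5A1 (-0.82, adjusted p = 0.0864) and COL4A5 (-0.65, adjusted p = 0.0981) were called lower, where 1.29% of 17234 genes were called.

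In the fetal lung collagens were a far larger share of the transcripts, at 2.02% to 2.71% of counted reads against 0.0774% to 0.297% in the hippocampus, though the gene sets of the 2 tables differ. Summed over all 35, they ranged from 20813 to 26648 CPM across the 15 libraries, and the range of each treated group overlapped that of the controls (21543 to 26648 CPM). Group means of the main fibrillar chains differed by less than the spread between controls. COL1A1 averaged 3366 ± 936 CPM in controls, 3497 ± 247 after 4 h of the clinical drug, 3588 ± 992 after 6 h of Beta-Ac, 3504 ± 300 after 5 days of the clinical drug and 3795 ± 1158 after 5 days of Beta-Ac (SD, n = 3 each). COL3A1 averaged between 6963 and 7397 CPM in the 5 groups.

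At 4 h after the clinical drug, 1 of 35 collagens was called, against 7.4% of all genes. COL23A1 (ENSMMUG00000004000), a transmembrane collagen, was at 10.5, 12.4 and 10.8 CPM in the controls 15-92, 15-101 and 16-113 and at 22.1, 12.9 and 17.3 CPM in 15-81, 15-85 and 15-97. Every treated library was above every control, with a log2 fold change of 0.65 ± 0.24 (edgeR quasi-likelihood test, Storey adjusted p = 0.0991). The call was lost without any 1 of 15-81, 15-97 and the 3 controls, and was kept only without 15-85.

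Of the 4 collagen VI chains tested in lung, 0 were called at 4 h and 2 had an unadjusted p under 0.05. COL6A5 was at 286, 341 and 339 CPM in controls and at 262, 213 and 178 CPM at 4 h, with no overlap (log2 fold change -0.57 ± 0.19, adjusted p = 0.0688, just under the fold limit). COL6A3 averaged 2814 ± 154 CPM in controls and 2193 ± 339 CPM at 4 h (SD, n = 3 each; -0.36 ± 0.12, adjusted p = 0.0665), also without overlap. COL6A1 (-0.07 ± 0.12) and COL6A2 (-0.03 ± 0.13) were near 0. The basement membrane chain COL4A6 had a log2 fold change of -0.40 ± 0.18 (adjusted p = 0.164) and COL8A2 of -0.50. The highest were COL8A1 at 1.14 ± 0.60 (adjusted p = 0.233), COL11A1 at 0.71 and COL20A1 at 0.67. Over all 35 the median was -0.03, and 5 had an unadjusted p under 0.05. Marker sums moved at the same time, those of epithelium to 10281 to 16260 CPM from 6167 to 9207 CPM in controls (4 of 4 listed matched) and those of endothelium to 1721 to 2392 CPM from 2426 to 2599 CPM (4 of 5 matched), neither with overlap. No matched marker was at 0 throughout any group, and their part in the collagen values was not tested.

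**Figure D4:**
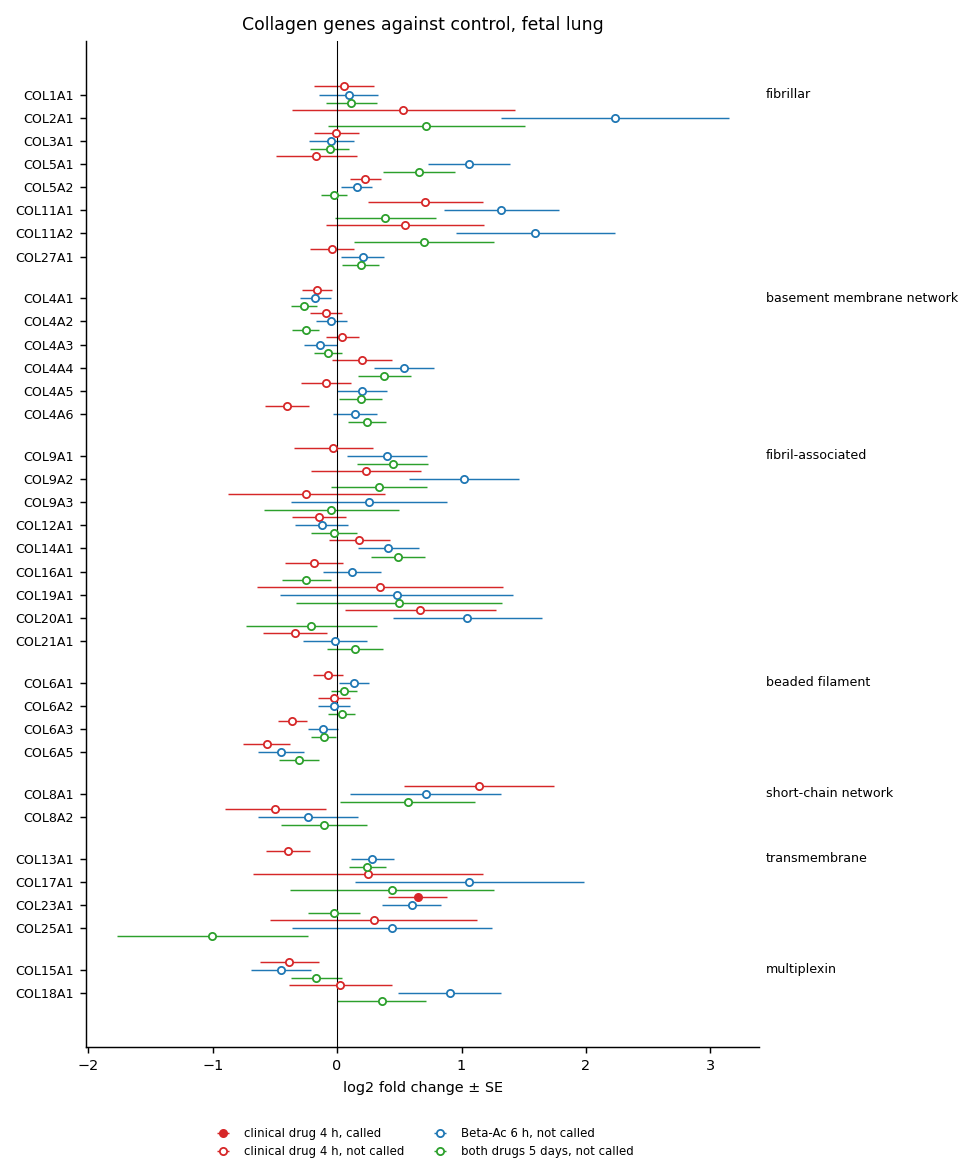
Log2 fold change against the shared saline controls (points, with the standard error as bars) of the 35 lung collagens after 4 h of the clinical drug (red), 6 h of Beta-Ac (blue) and 5 days of both drugs together (green). The only filled, called point is COL23A1 at 4 h, while the Beta-Ac 6 h values of COL2A1, COL11A2 and COL11A1 lie furthest to the right.

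At 6 h after Beta-Ac, 0 of 35 collagens were called and 0.442% of all genes were. By edgeR 9 of 35 had an unadjusted p under 0.05, and DESeq2 called 1, COL5A1, at a log2 fold change of 1.04 (DESeq2 adjusted p = 0.0504). Fitted values were higher for 24 of 35, with a median of 0.21. The 3 largest belonged to chains of cartilage fibrils, COL2A1 at 2.23 ± 0.91 (adjusted p = 0.297), COL11A2 at 1.59 ± 0.64 (adjusted p = 0.292) and COL11A1 at 1.32 ± 0.46 (adjusted p = 0.260). COL17A1 at 1.06 ± 0.92 (adjusted p = 0.519) and COL5A1 at 1.06 ± 0.33 (adjusted p = 0.219) came next. The lowest were COL6A5 and COL15A1, both at -0.45, and COL8A2 at -0.24.

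COL2A1 was at 6.96, 12.5 and 30.2 CPM in the controls 15-92, 15-101 and 16-113 and at 41.6, 47.9 and 146 CPM in 16-123, 16-131 and 17-254. All 3 Beta-Ac libraries exceeded the controls, and 17-254 was well above the rest. The same library held 13.5 CPM of the cartilage proteoglycan ACAN, the most of all, and 224 CPM summed over 6 matched cartilage markers of 10 listed, where controls held 25.1 to 28.8 CPM and the clinical drug at 4 h 113 to 241 CPM. At 5 days the sums ran from 18.2 to 57.9 CPM, no matched cartilage marker was at 0 throughout any group, and their part in the collagen values was not tested. Without 17-254 the log2 fold change of COL2A1 was 1.43.

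The 2 early time points differed from each other in 2 collagens, both lower after the clinical drug at 4 h than after Beta-Ac at 6 h, where 6.74% of all genes were called. COL5A1 was at 110, 76.9 and 111 CPM at 4 h and at 147, 187 and 363 CPM at 6 h, against 84.3, 88.9 and 161 CPM in controls (log2 fold change -1.23 ± 0.33, adjusted p = 0.0341). COL13A1 (ENSMMUG00000005716), a transmembrane collagen of cell adhesion sites, was at 58.2, 58.3 and 86.2 CPM at 4 h and at 112, 120 and 92.7 CPM at 6 h, with controls at 81.7, 91.2 and 93.8 CPM (-0.68 ± 0.18, adjusted p = 0.0286). Neither pair of treated groups overlapped. COL13A1 was no longer called without 15-85, and COL5A1 without 15-85 or 17-254. Drug, time and the first part of the library names (15 at 4 h, 16 or 17 at 6 h) all differed in this comparison and cannot be told apart. COL5A1 was lower in every lung library named 15 than in every other one. This included the controls, at 84.3 and 88.9 CPM in 15-92 and 15-101 against 161 CPM in 16-113.

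Fitted values of 28 of 35 collagens were lower at 4 h of the clinical drug than at 6 h of Beta-Ac, with a median of -0.25. The furthest apart were COL2A1 at -1.70, COL5A1 at -1.23 and COL11A2 at -1.04, and on the other side COL8A1 at 0.43, COL4A3 at 0.18 and COL5A2 at 0.07.

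**Figure D5:**
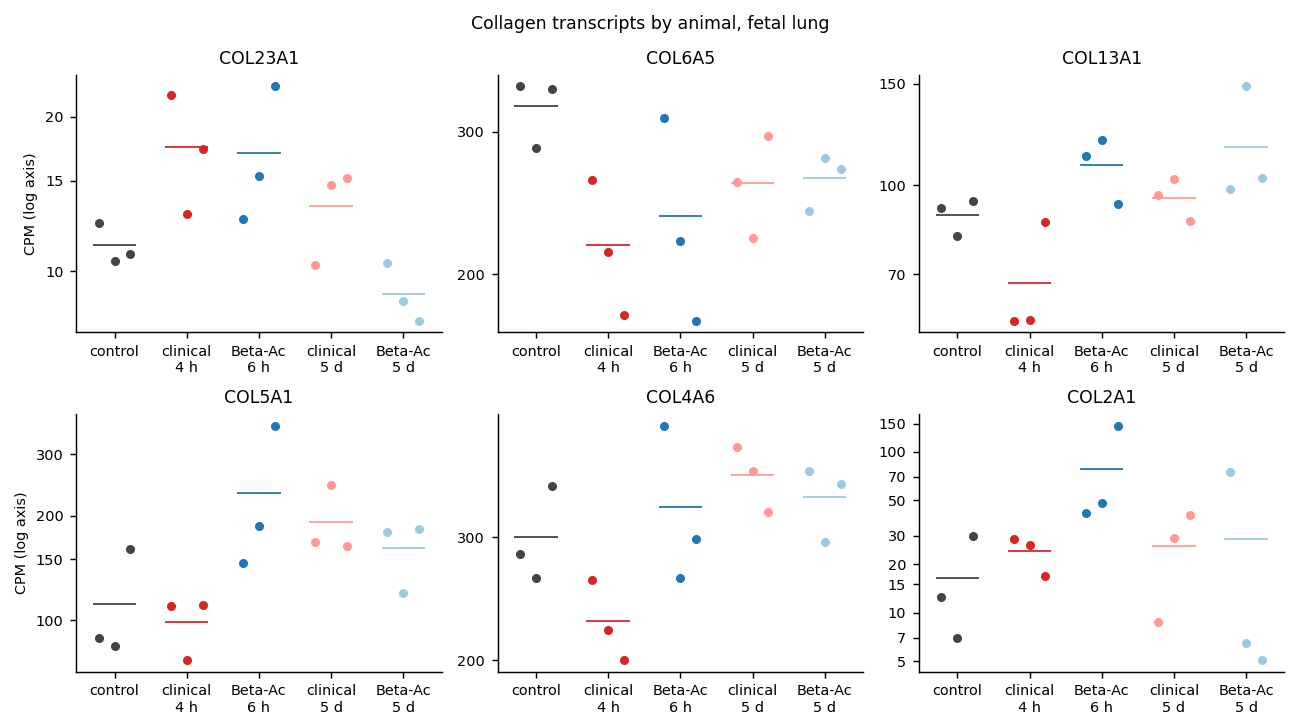
CPM of 6 lung collagens in each library of the 5 groups (points; the line is the group mean, n = 3 each). COL4A6 after 4 h of the clinical drug lies between 200 and 261 CPM, below all libraries at 5 days, and COL2A1 is highest in 1 Beta-Ac 6 h library at 146 CPM.

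By 5 days no collagen was called in the lung against the same 3 controls. For the clinical drug 0 of 35 were called, with 0% of all genes, and 1 had an unadjusted p under 0.05 in edgeR while DESeq2 called 0. The largest values were 0.79 for COL5A1 (adjusted p = 0.931), 0.65 for COL2A1 and 0.58 for COL9A1, and the lowest -1.24 for COL25A1, -0.48 for COL20A1 and -0.31 for COL6A5. For Beta-Ac 0 of 35 were called, with 0.00567% of all genes, 4 had an unadjusted p under 0.05 in edgeR and DESeq2 called 0. Here COL11A2 was at 0.99, COL8A1 at 0.93 and COL2A1 at 0.78, the COL2A1 value resting on 16-128 with 74.4 CPM against 6.44 and 5.09 CPM in the other two. The lowest were COL25A1 at -0.76, COL9A3 at -0.41 and COL4A2 at -0.32.

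With both drugs pooled at 5 days against controls, 0 of 35 were called and 0.0113% of all genes were, with 4 at an unadjusted p under 0.05 in edgeR and 0 called by DESeq2. COL4A1, which forms the basement membrane of alveoli and capillaries with COL4A2, was at 1735 to 1851 CPM in controls and at 1313 to 1609 CPM in the 6 treated libraries (log2 fold change -0.26 ± 0.10, adjusted p = 0.719). COL4A2 had -0.25. COL2A1 at 0.72, COL11A2 at 0.70 and COL5A1 at 0.66 were the highest, and COL25A1 at -1.0 was the lowest, on 0 to 10 reads per library. The 2 drugs set against each other at 5 days gave 0 called collagens and 0% of all genes, with 2 at an unadjusted p under 0.05 in edgeR and 0 by DESeq2. COL9A3 at 0.73, COL23A1 at 0.57 and COL6A1 at 0.27 were highest in the clinical drug group, and COL8A1 at -0.73, COL17A1 at -0.64 and COL11A2 at -0.59 lowest.

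Within the clinical drug, 2 collagens were lower at 4 h than at 5 days, where 10.4% of all genes were called. COL4A6 was at 261, 221 and 200 CPM in 15-81, 15-85 and 15-97 and at 405, 374 and 327 CPM in 16-115, 16-120 and 16-126, groups that did not overlap (log2 fold change -0.70 ± 0.18, adjusted p = 0.0165). Its call was kept without each of these 6 libraries in turn. Controls lay at 262 CPM in 15-92, 284 CPM in 15-101 and 355 CPM in 16-113. All 4 h libraries here were named 15 and all 5-day libraries 16, so time and this part of the names cannot be told apart. COL5A1 averaged 99.2 ± 19.3 CPM at 4 h and 192 ± 46.1 CPM at 5 days (SD, n = 3 each; -0.95 ± 0.33, adjusted p = 0.0561), a call lost without 15-85 or 16-120. The next lowest value was -0.61 for COL9A1, and the highest were COL25A1 at 1.54, COL20A1 at 1.15 and COL8A1 at 0.94.

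Within Beta-Ac, 0 of 35 were called between 6 h and 5 days, with 0.261% of all genes. By edgeR 2 had an unadjusted p under 0.05, and DESeq2 called 1, COL23A1, at 0.89 (DESeq2 adjusted p = 0.0283). COL23A1 was at 12.7, 15.3 and 23.0 CPM at 6 h and at 10.4, 8.72 and 8.0 CPM at 5 days, without overlap (edgeR log2 fold change 0.91, adjusted p = 0.205). The largest edgeR values were 1.45 for COL2A1, 1.2 for COL25A1 and 0.98 for COL20A1, and the lowest were -0.28 for COL15A1, -0.24 for COL12A1 and -0.22 for COL8A1.

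Of the 15 collagens called lower in CEL hippocampus, 12 were tested in lung. Their hippocampal log2 fold changes ran from -2.27 to -0.70, with a median of -1.44 over the 15, of which 7 were not called without CTL212. In lung after 5 days of the clinical drug, 11 of the 12 had values above 0, from -0.09 to 0.79 with a median of 0.29, where 22 of all 35 lung collagens had values above 0 with a median of 0.12. After 5 days of Beta-Ac 10 of the 12 did, with a median of 0.26, where 21 of 35 did with a median of 0.12. None of these lung values was called. After 4 h the median was -0.02 with 7 of 12 lower, and after 6 h of Beta-Ac it was 0.30 with 3 of 12 lower. The 2 tables were normalised separately, and the difference between tissues was not tested.

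Genes that make and trim collagen chains, and matrix proteins and receptors that bind collagens, were examined beside them. In CEL hippocampus against controls, 2 of 34 tested synthesis and processing genes fell and 0 rose, a share near the 5.35% of all genes called lower. They were PCOLCE, which speeds removal of the collagen C-terminal propeptide (log2 fold change -3.08 ± 0.98, adjusted p = 0.0515), and ADAMTS2, which removes the N-terminal propeptide (-0.87 ± 0.28, adjusted p = 0.0530). Among 30 tested collagen-binding genes 4 fell and 0 rose, the fibril-coating proteoglycan DCN (-1.17 ± 0.37, adjusted p = 0.0492), the basement membrane genes HSPG2 (-1.06 ± 0.34, adjusted p = 0.0502) and NID2 (-0.84 ± 0.33, adjusted p = 0.0978), and the laminin chain LAMA2 (-0.73 ± 0.26, adjusted p = 0.0689). Without CTL212 the calls were ADAMTS2 (-0.78, adjusted p = 0.0898), DCN (-0.98, adjusted p = 0.0934) and COLGALT2 (-0.60), which glycosylates collagen, on the lower side, and the inhibitory collagen receptor LAIR1 (1.04, adjusted p = 0.0592) on the higher side, while PCOLCE, HSPG2, LAMA2 and NID2 were no longer called.

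In lung, 2 of 33 synthesis genes and 2 of 28 binding genes were called higher at 4 h of the clinical drug, where 3.46% of all genes were called higher. At 6 h of Beta-Ac 0 and 2 were, against 0.368% of all genes, and none was lower at either time. After 4 h of the clinical drug LAMB1, a laminin chain of basement membranes, rose from 715 ± 20.4 to 2282 ± 499 CPM (SD, n = 3 each; log2 fold change 1.67 ± 0.18, adjusted p = 8.19e-05). P3H2, a prolyl 3-hydroxylase acting on collagen IV, rose by 1.30 ± 0.22 on the log2 scale (adjusted p = 0.00206), the matrix glycoprotein THBS1 rose by 1.21 ± 0.22 (adjusted p = 0.0027) and the propeptidase ADAMTS14 by 0.76 ± 0.18 (adjusted p = 0.0163). After 6 h of Beta-Ac LAMB1 (0.97, adjusted p = 0.0471) and THBS1 (1.15, adjusted p = 0.0475) were called higher. LAMB1 was at 690 ± 79.7 CPM after 5 days of the clinical drug and at 706 ± 23.3 CPM after 5 days of Beta-Ac, and no partner was called at 5 days against controls in either drug. Between 4 h and 6 h, LAMB1 (0.71), P3H2 (0.70) and the propeptidase ADAMTS3 (1.05) were called higher after the clinical drug, as were 463 of all 17644 genes. Of the 33 synthesis genes and 28 binding genes tested in lung, 3 and 2 were called higher at 4 h than at 5 days of the clinical drug, led by LAMB1 (1.72), THBS1 (1.31) and P3H2 (1.23), and 1 synthesis gene, the chaperone FKBP14, was called lower (-0.86). In the same comparison 789 of all 17644 genes were called higher and 1044 lower. Between 6 h and 5 days of Beta-Ac LAMB1 (0.98, adjusted p = 0.0632) was the only partner called, where 0.261% of all genes were called.

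Chains that assemble into the same molecule were compared across libraries of 1 tissue as deviations from their group means, over 19 pairs and tissues with permutation tests (two-sided, adjusted over the 19, with an adjusted p under 0.05 taken as passing). In hippocampus COL1A1 and COL1A2 varied together, with Pearson r = 0.994 and Spearman rho = 0.993 over 15 libraries (permutation p = 1e-05, the smallest the draws can give, adjusted p = 0.00019). Without the 2 libraries farthest from the median, CEL126 and CTL209, r was 0.997, a value that still included CTL212 and BAC130. COL6A1 and COL6A3 gave r = 0.906 and rho = 0.821 (permutation p = 9e-05, adjusted p = 0.000855), or r = 0.891 without CTL212 and BAC130. COL6A1 and COL6A2 gave r = 0.685 (adjusted p = 0.0726), or 0.305 without the same 2 libraries. COL4A3 and COL4A4 gave r = 0.786 and rho = 0.779 (permutation p = 0.00327, adjusted p = 0.0207), and without 2 libraries r = 0.735 did not pass (adjusted p = 0.0888). COL4A5 and COL4A6 gave r = 0.801 (adjusted p = 0.0726), which was 0.249 without CTL212 and BAC237 and so rested on these. In lung no pair passed. The highest r was 0.697 for COL2A1 with COL11A1 (exact permutation test, adjusted p = 0.141), and the smallest adjusted p, 0.0726 by the same exact test, belonged to COL6A1 with COL6A2 (r = 0.640) and COL4A5 with COL4A6 (r = 0.629).

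Several collagen genes lie next to each other in the RefSeq gene order of the T2T-MMU8v2.0 assembly, used here for names and neighbours only. Of 6 adjacent pairs (COL3A1 with COL5A2, COL4A1 with COL4A2, COL4A3 with COL4A4, COL6A1 with COL6A2, COL6A5 with COL6A6 and COL9A1 with COL19A1), all were tested in hippocampus. None of these 6 had both genes called in CEL against controls, and 3 had 1 gene called, namely COL3A1, COL6A2 and COL9A1. Adjacent here means consecutive in the order of gene starts, so collagens with the start of another gene between them are not counted. COL4A5 and COL4A6, both called lower in this comparison, were not consecutive in this order and do not enter the counts. This does not show that they lie apart.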

How the data were processed

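The deposited tables held raw read counts per Ensembl rhesus gene. For lung, the authors' notes name Bowtie 1.2.1.1 and featureCounts 1.5.1, and for hippocampus Bowtie2, featureCounts and edgeR. The methods of the study name the build MMUL1.0. Hippocampus libraries were poly(A)-selected and paired-end. Counts were analysed per tissue in 1 fit with TMM scaling and edgeR's quasi-likelihood test (edgeR 4.0.16, R 4.3.3) on genes with at least 7 reads in 3 lung or 5 hippocampus libraries. A gene was called when it changed 1.5-fold or more, its p was below 0.05 and its adjusted p was below 0.1 (Storey in lung, Benjamini-Hochberg in hippocampus), computed over all genes tested. The fitted log2 fold changes used a prior count of 0.125, and the log2 CPM of the chain pairs used a larger one. Alternatives included DESeq2 1.42.0, other normalisations and filters, sequencing run as a term and leaving out libraries. Scripts were tested on simulated data. Depth per library was 14073002 to 45033799 counted reads. The pairs of chains used scipy 1.17.1.

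Replicates were separate fetuses. Genes named are collagens called in any comparison, the major chains and the 3 largest changes in each direction, plus called partners (at most the 4 of smallest p per comparison). These members and lists were chosen with earlier results of these data known. No sequences were printed and no genome was used here. Reads of near-identical genes, overlapping genes and opposite strands could not be checked.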

Additional observations from a re-analysis of the deposited data

Results flagged for a closer look

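In groups of 5 hippocampus libraries, the highest or lowest value was set against Dixon's limit of 0.71 for the gap over the range of log2 CPM. Of 69 groups examined 9 passed it, where chance gives about 1 in 20 for independent groups. The groups here shared libraries, and their collagens were those called in CEL against control, calls that rested in part on CTL212. The count can therefore not be set against that rate. CTL212 stood above the other controls for COL5A1 (71.8 CPM), COL2A1 (20.8 CPM), COL4A5 (89.2 CPM), COL21A1 (18.2 CPM) and COL9A1 (65.0 CPM), and for the summed choroid plexus (1174 CPM) and mural (277 CPM) markers. CEL126 stood above the other CEL libraries for COL2A1 (2.31 CPM), and CTL113 above the other controls for summed astrocyte markers (3166 CPM).

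In lung, levels differed between the early groups, tested directly, for COL13A1 (log2 difference -0.68) and COL5A1 (-1.23) between 4 h of the clinical drug and 6 h of Beta-Ac. Between 4 h and 5 days of the clinical drug they differed for COL4A6 (-0.70) and COL5A1 (-0.95). In both comparisons the groups also differed in the first part of their library names, which cannot be told apart from drug or time.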

How the results depend on the processing

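In the CEL against control hippocampus, the 15 called collagens became 8 without CTL212 and BAC130, a setting chosen after seeing the data, and 8 to 19 when 1 library at a time was left out. They were 15 with RLE scaling or edgeR's own filter, 12 without a filter, 16 with DESeq2, 20 with Storey's adjustment, 17 without a fold limit or with only the groups compared, 18 with the run as a term and 14 in the runs that hold all groups. Of the original 15, 11 were kept without a filter or with the run as a term, and 13 with DESeq2 or with only the groups compared. The runs that hold all groups kept 8, losing COL11A2, COL26A1, COL28A1 and COL6A2 besides COL1A1, COL1A2 and COL3A1. DESeq2 lost COL2A1 and COL21A1. Each fit with the run called 1 collagen higher, and its difference rested on CTL113 and CTL212. When groups were taken from the treatment field instead of the library names, CEL and BAC changed places, so that the first comparison gave 0 calls, COL28A1 turned to 0.037 and COL6A5 to -0.26, and the second, BAC against control, gave 15. That grouping only turns the sign of CEL against BAC, where DESeq2 called 1 and the fit without CTL212 and BAC130 called 2.

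In lung, the 1 collagen called at 4 h became 0 without a filter, with Benjamini-Hochberg adjustment or with only the groups compared, 3 without a fold limit and 0 to 1 on leaving out libraries. The gene changed too: with edgeR's own filter COL23A1 was lost and COL6A5 (-0.58) was called lower, as it was without 15-81 or 15-92, and without 15-97 COL13A1 (-0.62) was called lower instead. DESeq2 called 1 at 6 h of Beta-Ac and 1 between 6 h and 5 days. Between 4 h and 6 h, 0 were called with only the groups compared and 0 to 4 on leaving out libraries, and between 4 h and 5 days 5 without a fold limit and 1 to 3 on leaving out libraries. The cause of these changes was not tested.

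On leaving out libraries, some uncalled log2 fold changes turned direction. At 4 h COL8A1 ran from -0.026 to 1.5, and at 6 h COL8A2 from -0.56 to 0.17. For Beta-Ac at 5 days COL11A2 ran from -0.28 to 1.53, COL25A1 from -1.34 to 0.25, COL2A1 from -1.54 to 1.56 and COL9A3 from -1.33 to 0.43, and for both drugs COL25A1 from -1.58 to 0.0067 and COL2A1 from -0.44 to 1.5. Between 4 h and 6 h COL5A2 ran from -0.025 to 0.13 and COL8A1 from -0.72 to 0.80. Between the drugs at 5 days COL11A2 ran from -1.0 to 0.69 and COL17A1 from -1.08 to 0.86. COL8A1 ran from -0.23 to 1.30 between 4 h and 5 days and from -0.40 to 0.11 between 6 h and 5 days, and COL9A3 in BAC from -0.45 to 0.57. No paired analysis was possible because replicate numbers follow accession order and mark no shared animal between groups.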
